A study of Mus musculus with 8 samples.

Results

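The genes described here are 36 mouse counterparts of genes in which human mutations are associated with autism. They were named as a list, with earlier results of these data known, and no measured value enters the rule that finds them. Each was looked up by its symbol among the 21069 features of the day 5 files and the 19011 genes of the day 0 table. All 36 were found in both. By role they fall into 10 chromatin genes (Chd8, Chd2, Adnp, Pogz, Arid1b, Ash1l, Setd5, Mbd5, Auts2, Med13l), 7 transcription factor genes (Tbr1, Foxp1, Foxp2, Bcl11a, Myt1l, Tcf4, Ebf3) and 3 ubiquitin ligase genes (Ube3a, Cul3, Trip12). A further 4 serve signalling or translation (Dyrk1a, Tsc1, Tsc2, Fmr1). The others are 8 synapse and adhesion genes (Shank2, Shank3, Nlgn3, Cntnap2, Reln, Dscam, Rims1, Ptchd1) and 4 genes grouped as channels and the membrane skeleton (Grin2b, Cacna1c, Ank2, Katnal2). Katnal2, a relative of a microtubule-severing enzyme, was placed in this last group though it is neither.

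Their RNA was measured in bulk cultures of 46C, a mouse embryonic stem cell line whose Sox1 locus, active in neural cells, drives green fluorescent protein, with the strain given as C57BL/6. Of the 4 lines, WT was the wild type and KO, labelled LincNDIME_KO, its knockout, while shCtrl and shMef2c carried short hairpin RNAs, as control and against Mef2c. Each line gave 1 library at day 0, from stem cells kept on irradiated fibroblast feeders with serum and LIF, and 1 at day 5, from aggregates in serum replacement medium that the labels call neural progenitor cells derived from ES cells. Each perturbation is therefore 1 line, the sources used here do not state the number of clones, and the day 0 RNA includes what the feeders contributed. NDIME is a long intergenic noncoding RNA which the series title links to Mef2c, to neural differentiation and to autism. The comparisons therefore ask where the autism-associated genes stood when either was perturbed. With 1 library per group no difference has a replicate check, and no test, standard deviation or p-value of its own is given. The intervals below are exact Clopper-Pearson 95% intervals for the ratio of 2 shares of reads and cover counting error only.

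Autism risk genes are commonly sorted into those that regulate chromatin and transcription, active early and in most cell types, and those that build or run synapses, active mainly in maturing neurons. Chromatin members remodel nucleosomes, modify histones or link transcription factors to RNA polymerase. Synaptic members include scaffolds of the receiving side, adhesion proteins that bridge the cleft and ion channels that set excitability. Mef2c, the gene targeted here by the hairpin, encodes a transcription factor of neurons and muscle and is itself associated with autism.

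Promoters rich in CG dinucleotides are common among genes used in many tissues, and the members' promoters were, at the median, of that kind. RefSeq (GRCm38.p6) gave a promoter for 27 of the 36 members, 43 promoters in all. Over the 250 bases before the start, the first promoter of each member held a median of 20 CG dinucleotides and 67.6% G and C. The first promoters of all 27025 genes held a median of 6 and 52.0%, and those of the 9765 genes with a mean level of 1 or more at day 5 held 16 and 60.4%. Synapse and adhesion members were not poorer in CG than the chromatin members, with medians of 26 over 6 promoters and 16 over 7. The 5 printed here belong to the member with the largest difference in shMef2c (Ebf3), the members with the largest read-share ratios in KO that rest on more than 20 reads (Dscam and Rims1), the chromatin member furthest below WT in KO (Chd8) and the most abundant member (Trip12). Each runs 5′ to 3′ on the gene's own strand, and capitals mark CG dinucleotides, of which there are 43 in Ebf3, 19 in Rims1, 21 in Dscam, 20 in Chd8 and 32 in Trip12.
Ebf3, chr7:137314446-137314695, minus strand: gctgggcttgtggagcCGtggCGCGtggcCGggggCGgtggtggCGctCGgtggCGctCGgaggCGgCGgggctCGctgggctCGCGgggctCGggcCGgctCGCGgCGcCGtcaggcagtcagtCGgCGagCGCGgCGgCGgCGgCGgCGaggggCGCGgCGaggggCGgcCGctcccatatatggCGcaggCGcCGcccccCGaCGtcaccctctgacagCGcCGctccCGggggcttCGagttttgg
Rims1, chr1:22806159-22806408, minus strand: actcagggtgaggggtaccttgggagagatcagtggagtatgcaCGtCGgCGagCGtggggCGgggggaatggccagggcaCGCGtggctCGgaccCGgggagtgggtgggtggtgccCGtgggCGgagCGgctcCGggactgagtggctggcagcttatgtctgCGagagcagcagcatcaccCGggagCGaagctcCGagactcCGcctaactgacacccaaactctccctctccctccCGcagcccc
Dscam, chr16:97170736-97170985, minus strand: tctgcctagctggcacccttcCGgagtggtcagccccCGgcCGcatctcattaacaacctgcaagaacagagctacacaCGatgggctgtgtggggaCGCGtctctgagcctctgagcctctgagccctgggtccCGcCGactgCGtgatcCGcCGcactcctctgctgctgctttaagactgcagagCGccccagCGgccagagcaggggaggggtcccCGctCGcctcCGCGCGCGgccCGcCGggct
Chd8, chr14:52257761-52258010, minus strand: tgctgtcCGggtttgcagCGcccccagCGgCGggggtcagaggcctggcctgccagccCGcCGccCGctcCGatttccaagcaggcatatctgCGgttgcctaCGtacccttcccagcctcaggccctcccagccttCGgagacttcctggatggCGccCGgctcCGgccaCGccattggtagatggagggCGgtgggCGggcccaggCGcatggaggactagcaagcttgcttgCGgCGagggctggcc
Trip12, chr1:84839305-84839554, minus strand: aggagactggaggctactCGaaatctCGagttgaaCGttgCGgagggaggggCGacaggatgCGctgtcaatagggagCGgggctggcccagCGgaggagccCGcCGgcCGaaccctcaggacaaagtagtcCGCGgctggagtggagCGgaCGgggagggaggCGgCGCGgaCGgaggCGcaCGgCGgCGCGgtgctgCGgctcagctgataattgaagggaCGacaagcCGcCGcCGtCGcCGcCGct
For a Mef2 site 1 pattern was searched on both strands, as were the others, namely CTA and TAG with any 4 bases between. It was found in 0 of the 43 member promoters, against 3.20% of all 32851 promoters of this length. Other forms of a Mef2 site were not searched, so this count does not show that such sites are absent. The cAMP response element TGACGTCA was also in 0 of 43, against 1.55%. The E-box CAGCTG was in 5 of 43 (11.6%), against 13.0%. No motif contains another, and a match or its absence describes only this window.

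The libraries held 25996204 to 26834802 estimated reads at day 5 and 20312032 to 20883674 at day 0. Mef2c, which checks the hairpin, was scarce throughout, at 0.45 FPKM in WT, 0.10 in KO, 0.50 in shCtrl and 0.12 in shMef2c at day 5. Its share of reads was 0.238 times that of shCtrl in shMef2c (0.138 to 0.392). At day 0 it stood at 0.16 RPKM in shCtrl and 0.37 in the library labelled shMef2c, a ratio of 2.21 (1.27 to 3.95) that goes against the label. No feature is named NDIME, so that deletion was not checked. Among markers of the labelled cell type at day 5, the summed level of 9 neural progenitor genes was 383 FPKM in WT, 124 in KO, 441 in shCtrl and 53.1 in shMef2c, all 9 being at 1 or more in the first 3 libraries and 5 in shMef2c. For 14 neuron markers the sums were 337, 317, 480 and 137 (13, 13, 13 and 9 genes at 1 or more), and for 12 genes of naive pluripotency 798, 2046, 546 and 2608 (11, 12, 11 and 12 genes). No gene of these 3 lists was at 0 at day 5. For 10 visceral endoderm markers the sums were 46.3, 128, 108 and 62.2 (8, 10, 7 and 6 genes at 1 or more), none at 0. For 7 primitive streak markers they were 52.9, 3.97, 48.5 and 164 (5, 1, 4 and 6 genes), with Mesp1 at 0 in KO. Feeder markers (9 genes) summed to between 17.0 and 22.8 FPKM at day 5 and between 218 and 394 RPKM at day 0, highest in the library labelled shMef2c. In bulk RNA, fewer cells of a type and less RNA per cell cannot be told apart, and the part that these markers play in the values below was not tested.

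Across the 8 libraries, the autism-associated genes split by role into abundant and scarce. At least 1 FPKM or RPKM was reached in all 8 libraries by 20 of the 36 and in at least 1 library by 27. The 9 members below 1 everywhere were Tbr1, Foxp2, Myt1l, Shank2, Reln, Dscam, Ptchd1, Grin2b and Cacna1c. The nearest to that line from below was Shank2, a scaffold of the postsynaptic density, with a highest value of 0.96, and the nearest from above was Bcl11a, a zinc finger repressor, with a highest value of 1.57. All 10 chromatin, all 3 ubiquitin and all 4 signalling and translation members were at 1 or more in every library. Only 2 of 7 transcription factors (Foxp1 and Tcf4), 1 of 8 synapse and adhesion genes (Cntnap2) and 0 of 4 channel and membrane skeleton genes were.

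The level of a role at day 5 was taken as the median of its members' medians over the libraries of that day. It was 24.0 FPKM for the ubiquitin ligases, 12.6 for signalling and translation and 7.99 for chromatin. It was 1.46 for channels and the membrane skeleton, 1.19 for transcription factors and 0.945 for synapse and adhesion. The order of the first 3 was the same at day 0, at 49.4, 18.4 and 12.9 RPKM, and the other 3 stood at 0.565, 0.11 and 0.253 there. Trip12, a ubiquitin ligase of the HECT family, was the most abundant member, at 116 to 126 RPKM at day 0 and 39.8 to 69.8 FPKM at day 5. In WT at day 5 it stood above 89.8% of all features. Grin2b, a subunit of the NMDA receptor, was the scarcest, with 1 to 10 reads per library at day 5 and 2 to 9 at day 0.

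**Figure D1:**
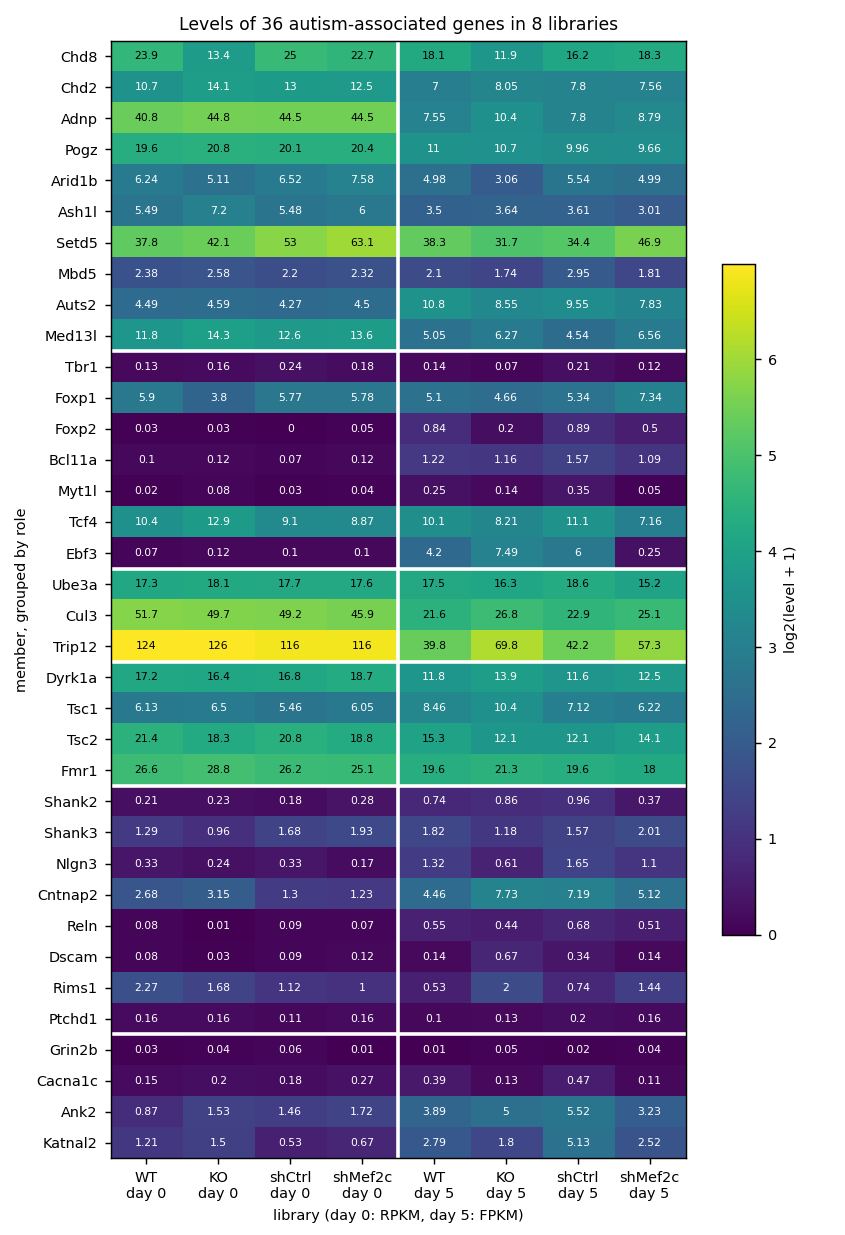
Level of each of the 36 genes (rows, grouped by role) in each of the 8 libraries (columns), printed as RPKM for day 0 and FPKM for day 5 and coloured by log2(level + 1). Chromatin, ubiquitin and signalling genes are at 1 or more in every library, while 9 members, all of them transcription factor, synapse or channel genes, are below 1 everywhere.

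At day 5, the share of autism-associated genes that differed by 2-fold was near or below that of all features in both perturbed lines. Those that differed were transcription factor, synapse and channel members, mostly below 1 FPKM. The share called among features of like level was not computed. The first measure was log2((level + 1)/(level + 1)) for features with a mean of at least 1 over the pair, which understates the differences of scarce genes. Between KO and WT it placed 0 of 26 members past 2-fold, against 7.31% of all 12832 features, with a member median of 0.0023 and a median of 0.0011 over all. Between shMef2c and shCtrl it placed 1 of 27 members past 2-fold, Ebf3, against 9.26% of 13041 features (4.78% lower), with a member median of -0.11 and -0.048 over all. The second measure, the ratio of read shares at 2-fold or more with an interval that leaves out 1, reached the scarce members as well. It called 3 members higher and 3 lower of 36 in KO, against 17.1% of 17008 features (8.79% higher and 8.27% lower). In shMef2c it called 0 higher and 5 lower of 36, against 20.1% of 17121 features (9.46% higher and 10.6% lower). Over both directions, the members' shares were near or below these backgrounds.

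**Figure D2:**
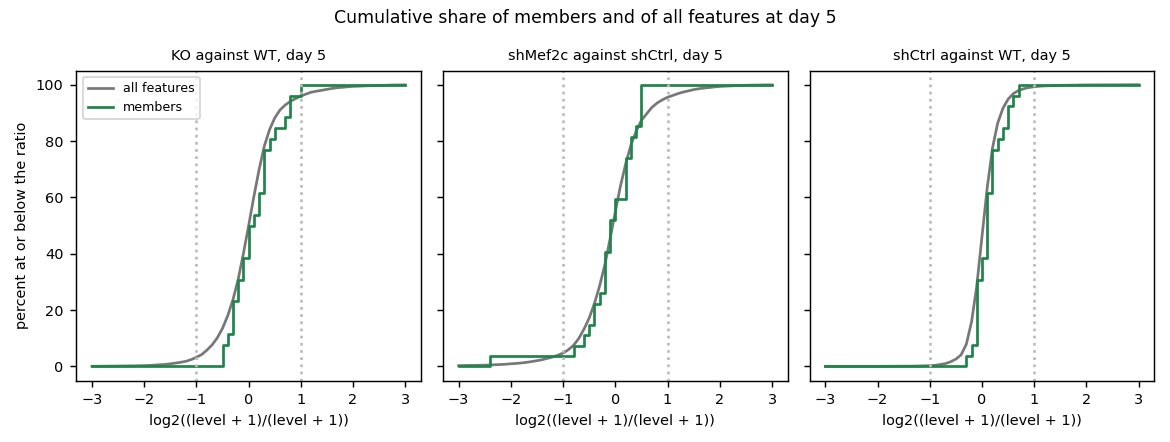
Percent of members (green steps) and of all features (grey line) at or below each log2((level + 1)/(level + 1)) at day 5, for KO against WT, shMef2c against shCtrl and shCtrl against WT, with dotted lines at 2-fold. Members follow the grey line in all 3 panels, and the step at the far left of the shMef2c panel is Ebf3 alone.

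Among chromatin genes, none of the 10 was past 2-fold in either line, and the role medians of the log2 ratio were -0.11 in KO and -0.040 in shMef2c. Chd8, a nucleosome remodeller and one of the most often mutated autism genes, stood at 18.1 FPKM in WT, 11.9 in KO, 16.2 in shCtrl and 18.3 in shMef2c. KO was the low library of the 4. Its read share there was 0.655 times that of WT (0.623 to 0.689), and the log2 ratio was -0.57, the lowest of all measured members in KO. Arid1b, a subunit of the BAF remodelling complex, was lowest in KO too, at 4.98 FPKM in WT, 3.06 in KO, 5.54 in shCtrl and 4.99 in shMef2c (log2 -0.56 for KO over WT).

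Setd5, a SET domain protein, was the most abundant chromatin member, at 38.3 FPKM in WT, 31.7 in KO, 34.4 in shCtrl and 46.9 in shMef2c. It was on the low side in KO (log2 -0.27) and on the high side in shMef2c (0.44). Mbd5, a methyl-CpG binding domain protein, showed the largest chromatin difference in shMef2c, at 2.10 FPKM in WT, 1.74 in KO, 2.95 in shCtrl and 1.81 in shMef2c (log2 -0.49 for shMef2c over shCtrl). Here shCtrl stood apart from the other 3 libraries, and the control libraries themselves differed by 0.35. The remaining 6 spanned log2 ratios of -0.30 (Auts2, a partner of a Polycomb complex) to 0.41 (Adnp, a zinc finger protein of a heterochromatin complex) in KO. In shMef2c they spanned -0.26 (Auts2) to 0.45 (Med13l, of the Mediator kinase module). Between those ends lay Chd2, a remodeller, Pogz, which binds heterochromatin protein, and Ash1l, a histone methyltransferase.

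Transcription factor members included the largest difference of the whole set. Ebf3, a helix-loop-helix factor of the early B cell factor family that marks newly formed neurons, stood at 4.20 FPKM in WT, 7.49 in KO, 6.00 in shCtrl and 0.25 in shMef2c. It was well expressed in 3 libraries and far lower in shMef2c. The read counts were 549, 961, 753 and 32, and the read share in shMef2c was 0.0415 times that in shCtrl (0.0282 to 0.0591), a log2 ratio of -2.49 with the pseudocount. Against WT the ratio was 0.0588 (0.0398 to 0.0840). In KO, by contrast, Ebf3 was above WT, with a read share 1.77 times as large (1.59 to 1.97) and a log2 ratio of 0.71, and the 2 control libraries differed by 0.43.

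Myt1l, a repressor of non-neuronal genes in neurons, was at 0.25 FPKM in WT, 0.14 in KO, 0.35 in shCtrl and 0.05 in shMef2c. The shMef2c library was the lowest, with 10 reads against 64 in shCtrl, a ratio of 0.153 (0.0699 to 0.299), and 0.215 (0.0966 to 0.430) against WT. Foxp2, a forkhead factor known for its part in speech, was at 0.84 FPKM in WT, 0.20 in KO, 0.89 in shCtrl and 0.50 in shMef2c. KO was the low library here, with 34 reads against 147 in WT, a ratio of 0.234 (0.156 to 0.342), and 0.222 (0.149 to 0.325) against shCtrl. In shMef2c the Foxp2 ratio to shCtrl was 0.566 (0.430 to 0.743), short of 2-fold.

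Tcf4, a helix-loop-helix factor that binds E-boxes, was the most abundant transcription factor member, at 10.1 FPKM in WT, 8.21 in KO, 11.1 in shCtrl and 7.16 in shMef2c. Both perturbed libraries were below both controls, with log2 ratios of -0.27 in KO and -0.56 in shMef2c. Foxp1, the forkhead relative of Foxp2, did not share its pattern, at 5.10 FPKM in WT, 4.66 in KO, 5.34 in shCtrl and 7.34 in shMef2c. Bcl11a lay between 1.09 and 1.57 FPKM. Its read-weighted transcript length was 2917 bases in KO against 3308 in WT, the largest such shift among members, so that its read-share ratio of 0.831 came out below the ratio of its FPKM values. Tbr1, a T-box factor of deep cortical layers, had 7 to 21 reads per library. Its KO ratio was 0.473 (0.163 to 1.23) to WT, not called, and 0.327 (0.117 to 0.799) to shCtrl, called lower.

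Of the 3 ubiquitin ligases, 2 were above WT in KO and 2 above shCtrl in shMef2c, none of them by 2-fold. Trip12 stood at 39.8 FPKM in WT, 69.8 in KO, 42.2 in shCtrl and 57.3 in shMef2c. Both perturbed libraries were above both controls. The read share in KO was 1.76 times that in WT (1.71 to 1.80), a log2 ratio of 0.80 and the highest among members with a level of 10 or more. In shMef2c the ratio was 1.36 (1.33 to 1.39). Cul3, the scaffold of ligases with BTB adaptors, was at 21.6 FPKM in WT, 26.8 in KO, 22.9 in shCtrl and 25.1 in shMef2c, with log2 ratios of 0.30 and 0.12. Ube3a, the ligase of Angelman syndrome, was at 17.5 FPKM in WT, 16.3 in KO, 18.6 in shCtrl and 15.2 in shMef2c, with log2 ratios of -0.10 and -0.28.

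Signalling and translation members lay within log2 ratios of -0.32 and 0.27 in KO and of -0.17 and 0.21 in shMef2c. Fmr1, which encodes the RNA-binding protein FMRP lost in fragile X syndrome, stood at 19.6 FPKM in WT, 21.3 in KO, 19.6 in shCtrl and 18.0 in shMef2c, and its log2 ratios were 0.12 in KO and -0.11 in shMef2c. Tsc2, which with Tsc1 forms the complex that restrains mTOR complex 1, stood at 15.4 FPKM in WT, 12.1 in KO, 12.1 in shCtrl and 14.1 in shMef2c. WT was the high library, so the log2 ratio of -0.32 for KO over WT was matched by -0.32 for shCtrl over WT. Tsc1 was at 8.46, 10.4, 7.12 and 6.22 FPKM in the same order, and Dyrk1a, a kinase encoded in the region duplicated in Down syndrome, lay between 11.6 and 13.9 FPKM.

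Synapse and adhesion members gave read-share calls in both directions in KO, as channel members did, and lower calls only in shMef2c. Rims1, a scaffold of the presynaptic release site, stood at 0.53 FPKM in WT, 2.00 in KO, 0.74 in shCtrl and 1.44 in shMef2c. Both perturbed libraries were above both controls. The read share in KO was 3.69 times that in WT (2.79 to 4.94) and 2.72 times that in shCtrl (2.11 to 3.54), and the log2 ratio with the pseudocount was 0.97, just short of 2-fold. In shMef2c the ratio to shCtrl was 2.00 (1.53 to 2.63), which before rounding lies just below the line, and it was 2.71 (2.02 to 3.67) against WT.

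Dscam, an adhesion protein of the immunoglobulin family, stood at 0.14 FPKM in WT, 0.67 in KO, 0.34 in shCtrl and 0.14 in shMef2c. The controls already differed, with 27 reads in WT and 65 in shCtrl, a ratio of 2.49 (1.56 to 4.05). KO had 131 reads, 4.91 times the WT share (3.23 to 7.74) but 1.98 times the shCtrl share (1.46 to 2.71). For shMef2c the ratio was 0.421 (0.260 to 0.665) to shCtrl and 1.05 (0.594 to 1.84) to WT. Each Dscam call was therefore lost with the other control library.

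Nlgn3, a postsynaptic adhesion protein that binds neurexins, stood at 1.32 FPKM in WT, 0.61 in KO, 1.65 in shCtrl and 1.10 in shMef2c. KO was the lowest, at 0.462 times the WT share (0.336 to 0.628) and 0.371 times the shCtrl share (0.272 to 0.500). Shank2 stood at 0.74 FPKM in WT, 0.86 in KO, 0.96 in shCtrl and 0.37 in shMef2c. There shMef2c was the lowest, with a ratio of 0.409 (0.299 to 0.554) to shCtrl and 0.534 (0.386 to 0.733) to WT. Shank3, its relative at the same synapses, ran the other way between the lines, at 1.82 FPKM in WT, 1.18 in KO, 1.57 in shCtrl and 2.01 in shMef2c. None of its ratios reached 2-fold.

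Cntnap2, an axonal adhesion protein of the neurexin superfamily, was the most abundant synapse and adhesion member, at 4.46 FPKM in WT, 7.73 in KO, 7.19 in shCtrl and 5.12 in shMef2c. WT was the lowest library. KO stood 1.74 times above WT (1.54 to 1.97) and 1.07 times above shCtrl (0.960 to 1.19), while shCtrl itself was 1.63 times WT (1.43 to 1.85). Reln, the glycoprotein that guides migrating neurons, lay between 0.44 and 0.68 FPKM, and Ptchd1, a membrane protein with a patched domain, between 0.10 and 0.20. Neither was called in KO or shMef2c.

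Among channel and membrane skeleton members, the calcium channel gene was low in both perturbed lines. Cacna1c, the pore subunit of an L-type calcium channel, stood at 0.39 FPKM in WT, 0.13 in KO, 0.47 in shCtrl and 0.11 in shMef2c. The 142 and 167 reads of the controls lay well above the 46 of KO and the 41 of shMef2c. The ratio was 0.328 (0.230 to 0.461) for KO over WT and 0.240 (0.166 to 0.339) for shMef2c over shCtrl. With the control libraries exchanged it was 0.270 (0.191 to 0.377) and 0.291 (0.200 to 0.415). Each line being set against its own control, Cacna1c was the 1 member called lower in both. Beside this stand 8.27% of all features lower in KO and 10.6% lower in shMef2c. The share of all features lower in both lines was not computed, so this overlap cannot be read as particular to the members. Grin2b had 1 read in WT, 10 in KO, 3 in shCtrl and 8 in shMef2c, and its ratio of 10.1 in KO (1.44 to 439.6) rests on that 1 read and was not called against shCtrl (3.27, 0.842 to 18.5).

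Ank2, an ankyrin that ties membrane proteins to spectrin, was the most abundant member of the group, at 3.89 FPKM in WT, 5.00 in KO, 5.52 in shCtrl and 3.23 in shMef2c. The log2 ratio was 0.30 in KO and -0.62 in shMef2c, and the read share in shMef2c was 0.537 times that in shCtrl (0.488 to 0.591). Katnal2, a relative of the microtubule-severing enzyme katanin, stood at 2.79 FPKM in WT, 1.80 in KO, 5.13 in shCtrl and 2.52 in shMef2c. It was shCtrl that stood apart, so that KO was 0.616 times WT (0.484 to 0.781) but 0.371 times shCtrl (0.297 to 0.462). The shMef2c share was 0.537 times that of shCtrl (0.442 to 0.650) and 0.891 times that of WT (0.719 to 1.10).

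**Figure D3:**
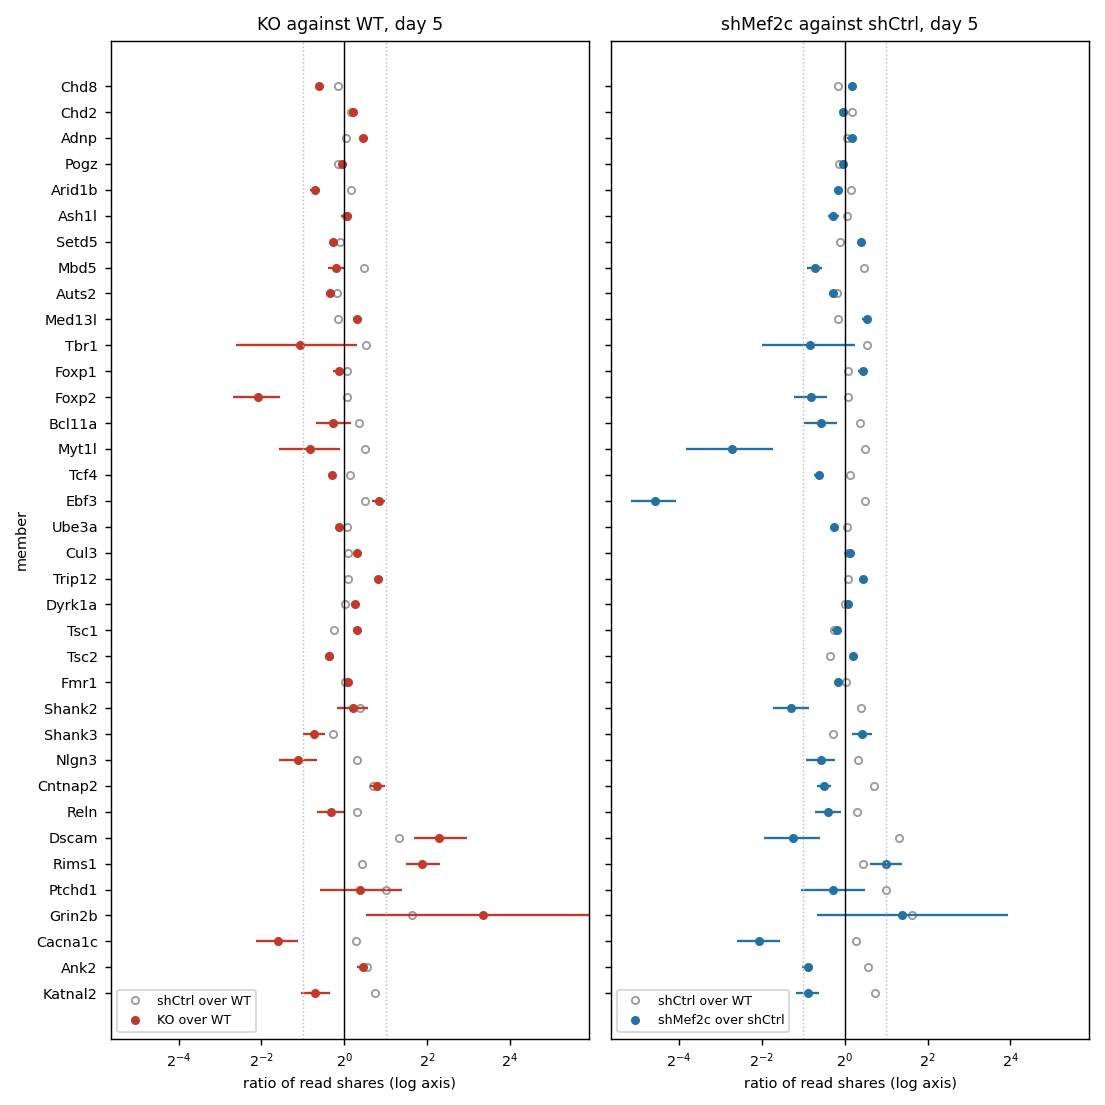
Ratio of read shares at day 5 for all 36 members on a log axis, with KO over WT at left and shMef2c over shCtrl at right; bars are 95% counting intervals (the upper end for Grin2b runs off the left panel), open circles are shCtrl over WT in both panels, and dotted lines mark 2-fold. Ebf3, Myt1l and Cacna1c lie furthest to the left in shMef2c, and Dscam, Rims1 and Grin2b furthest to the right in KO.

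Exchanging the control library left part of the calls. Of the KO read-share calls, 1 of 3 higher (Rims1) and 3 of 3 lower (Foxp2, Nlgn3 and Cacna1c) were also called against shCtrl. Of the 5 lower calls in shMef2c, 3 (Myt1l, Ebf3 and Cacna1c) were also called against WT. Dscam and Shank2 were not. Exchanging the control also added calls. Against shCtrl, KO was lower in 3 further members, Tbr1, Myt1l (0.399, 0.242 to 0.638) and Katnal2, so that Myt1l was then low in both lines. Against WT, shMef2c was higher in Rims1. The share of all features called by read share with the control exchanged was not computed, so these counts cannot be read as particular to the members. With the pseudocount, 1 of 27 members was past 2-fold for KO over shCtrl, against 10.2% of all features. For shMef2c over WT it was 1 of 26, against 7.21%. The 2 controls differed from each other by 2-fold in 0 of 26 members with the pseudocount, against 0.996% of 12845 features. By read share 2 of 35 members with at least 10 reads were higher in shCtrl, Dscam and Ptchd1 (2.00, 1.08 to 3.84), against 6.34% of 16891 features (4.33% higher). The neuron marker sum of 480 FPKM in shCtrl against 337 in WT went with this, and its part was not tested.

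The authors' deposited table for KO over WT lists 5 of the members among its 2253 genes: Dscam at a log2 ratio of 2.26, Rims1 at 1.92, Nlgn3 at -1.11, Cacna1c at -1.58 and Foxp2 at -2.07. In the authors' deposited table for shMef2c over shCtrl, 6 of its 2758 genes are members. These are Ebf3 at -4.58, Myt1l at -2.81, Cacna1c at -2.10, Shank2 at -1.38, Dscam at -1.28 and Katnal2 at -1.03. These tables use no pseudocount and the same FPKM values, so they are no independent check of the ratios above. Katnal2 is the member listed there and not called by read share here. Its FPKM ratio and its read-share ratio differ because its read-weighted transcript length was 2350 bases in shCtrl and 2567 in shMef2c.

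In stem cells at day 0 no measured autism-associated gene was past 2-fold with the pseudocount, while a few were called by read share. KO and WT differed by 2-fold in 0 of 24 members, against 2.93% of 12002 genes. The library labelled shMef2c and shCtrl differed in 0 of 23, against 0.231% of 12103, and shCtrl and WT in 0 of 23, against 1.27% of 11921. By read share, KO had 2 of 35 members called, against 8.63% of 15717 genes. Myt1l had 11 reads in KO and 2 in WT (ratio 5.65, 1.23 to 52.5), and Reln had 3 and 21 (0.147, 0.0281 to 0.492), both at 0.08 RPKM or less. The library labelled shMef2c had 0 of 34, against 2.74% of 15813. For shCtrl over WT, 2 of 34 were lower, against 4.91% of 15614 (2.00% lower). They were Cntnap2 (1.3 against 2.68 RPKM, ratio 0.485, 0.375 to 0.623) and Rims1 (1.12 against 2.27 RPKM, ratio 0.484, 0.372 to 0.626). With the control exchanged, KO over shCtrl was called higher in Cntnap2 (2.41) and lower in Reln (0.139). The library labelled shMef2c over WT was called higher in Ank2 (2.10) and lower in Cntnap2 (0.471) and Rims1 (0.437). The share of all genes so called with the control exchanged was not computed.

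Chd8 had the lowest log2 ratio of any measured member in KO at day 0 as well, -0.79. It stood at 23.9 RPKM in WT, 13.4 in KO, 25.0 in shCtrl and 22.7 in the library labelled shMef2c. Ebf3, which separated the day 5 libraries most, was at 0.07 RPKM in WT, 0.12 in KO, 0.10 in shCtrl and 0.10 in the library labelled shMef2c. Cacna1c, low in both perturbed lines at day 5, was at 0.15, 0.20, 0.18 and 0.27 RPKM in the same order. Among the more abundant members, Setd5 stood at 37.8, 42.1, 53.0 and 63.1 RPKM, the widest spread of any member above 10 RPKM except Chd8. Fmr1 lay between 25.1 and 28.8 RPKM and Tsc2 between 18.3 and 21.4. Foxp2 was listed at 0 in shCtrl.

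Chd8, on chromosome 14, lay among genes most of which were also below WT in KO. Of its 20 nearest measured neighbours in gene order (10 on each side, RefSeq order), 18 had a log2 ratio below 0 for KO over WT at day 5, with a median of -0.76, and 17 were below 0 at day 0, with a median of -0.48. The whole of chromosome 14 had medians of -0.28 and -0.16. In shMef2c over shCtrl, 10 of the 20 neighbours were below 0 at each day, and Chd8 itself was at 0.16 and -0.13. Arid1b and Tsc2 lie on chromosome 17, whose median log2 ratio in KO over WT was -0.30 at day 5 and -0.20 at day 0. Of the measured neighbours of Arid1b, 13 of 16 were below 0 at day 5 (median -0.24) but 7 of 18 at day 0 (median 0.30), where Arid1b itself was at -0.24. Around Tsc2, 17 of 20 were below 0 at day 5 (median -0.25) and 14 of 20 at day 0 (median -0.20). The part of the neighbours in the values of these 3 members was not tested.

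**Figure D4:**
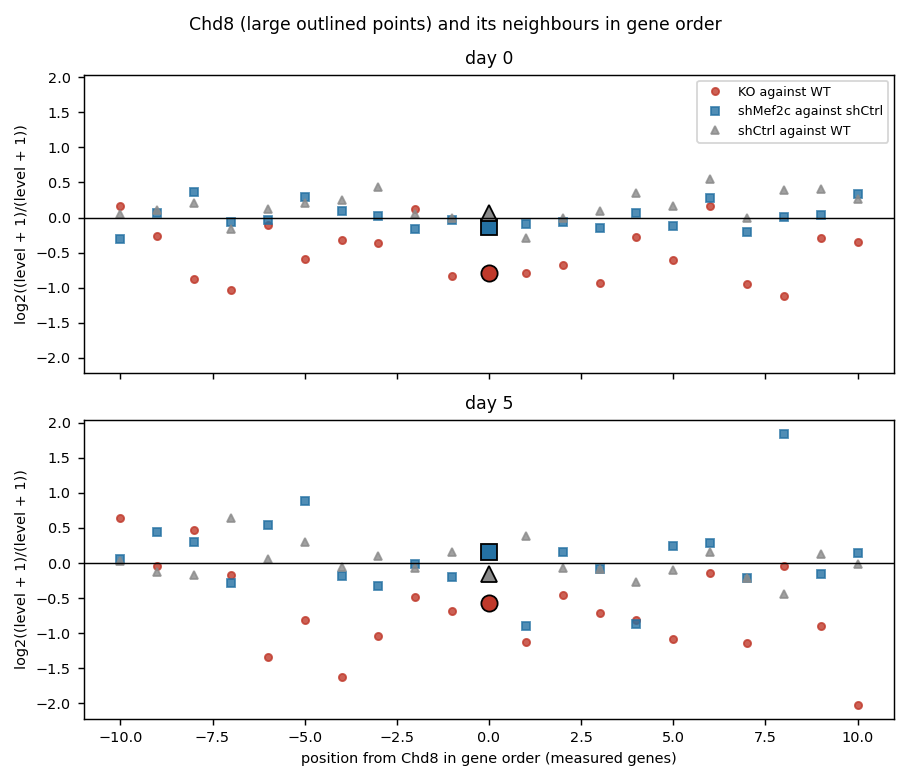
Log2((level + 1)/(level + 1)) of Chd8 (large outlined points at 0) and of its 10 nearest measured genes on each side in gene order, at day 0 (top) and day 5 (bottom), for KO against WT (circles), shMef2c against shCtrl (squares) and shCtrl against WT (triangles). In KO the neighbours lie mostly below 0 together with Chd8, and in the other comparisons they scatter around 0.

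Between day 0 and day 5 of the same line, several members stood at different levels, as did a large share of all genes. These ratios set FPKM values over RPKM values from tables that were normalized separately, and the median over all genes was subtracted from each. In WT 8 of 25 members were past 2-fold, against 30.0% of 11989 genes. In KO 5 of 25 were, against 19.9% of 12015, in shCtrl 9 of 24, against 30.6% of 12182, and in shMef2c 3 of 24, against 18.9% of 12129. In each line more members lay below 0 than above, 18 of 25 in WT, 16 of 25 in KO, 16 of 24 in shCtrl and 16 of 24 in shMef2c, with medians between -0.40 and -0.30 around the centre of all genes.

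The members past 2-fold higher at day 5 in at least 1 line were Ebf3, Ank2, Cntnap2, Katnal2 and Auts2. Ebf3 had the largest difference in WT (log2 2.26), KO (2.91) and shCtrl (2.60), while in shMef2c its levels of 0.10 and 0.25 were under the minimum mean of 1. Ank2 stood at 0.87 RPKM in WT, 1.53 in KO, 1.46 in shCtrl and 1.72 in the library labelled shMef2c at day 0. Its centred log2 ratio was 1.37 in WT, 1.23 in KO, 1.33 in shCtrl and 0.67 in shMef2c, so shMef2c was the 1 line short of 2-fold. Cntnap2 was past 2-fold in KO (1.06), shCtrl (1.76) and shMef2c (1.49) and not in WT (0.55), and WT had more of it at day 0 than either hairpin line. Katnal2, at 1.21 RPKM in WT, 1.5 in KO, 0.53 in shCtrl and 0.67 in the library labelled shMef2c, was past 2-fold in shCtrl (1.93) and shMef2c (1.11). Auts2 was past it in WT alone (1.08), with 0.72 to 0.93 in the other lines.

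The members past 2-fold lower at day 5 were Adnp, Trip12, Cul3, Med13l, Pogz and Rims1, of which all but Rims1 are of abundant roles. Adnp, at 40.8 to 44.8 RPKM at day 0 and 7.55 to 10.4 FPKM at day 5, was past 2-fold in all 4 lines, with centred log2 ratios of -2.31 in WT, -2.02 in KO, -2.44 in shCtrl and -2.18 in shMef2c. Trip12 and Cul3 were past 2-fold in the controls, at -1.64 and -1.25 in WT and -1.51 and -1.14 in shCtrl. In KO they were at -0.85 and -0.88 and in shMef2c at -0.97 and -0.81, short of 2-fold. Trip12 in shMef2c lies near the line, and the median subtracted there was -0.037. Without that step 3 members were past 2-fold lower in shMef2c instead of 1. Med13l was past 2-fold in WT (-1.10), KO (-1.09) and shCtrl (-1.37). Pogz was at the line, past it in shCtrl (-1.02) and between -0.97 and -0.80 elsewhere. Rims1 was past 2-fold lower in WT alone (-1.12), from 2.27 RPKM to 0.53 FPKM. In shCtrl, where its mean was under the minimum, it stood at 1.12 RPKM and 0.74 FPKM, and in KO at 1.68 RPKM and 2.00 FPKM.

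Naive pluripotency markers moved with this course, summing to between 3309 and 3914 RPKM at day 0 and to between 546 and 2608 FPKM at day 5, highest at day 5 in KO and shMef2c. So did the feeder markers given above. The part of either in the day 0 to day 5 ratios was not tested.

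**Figure D5:**
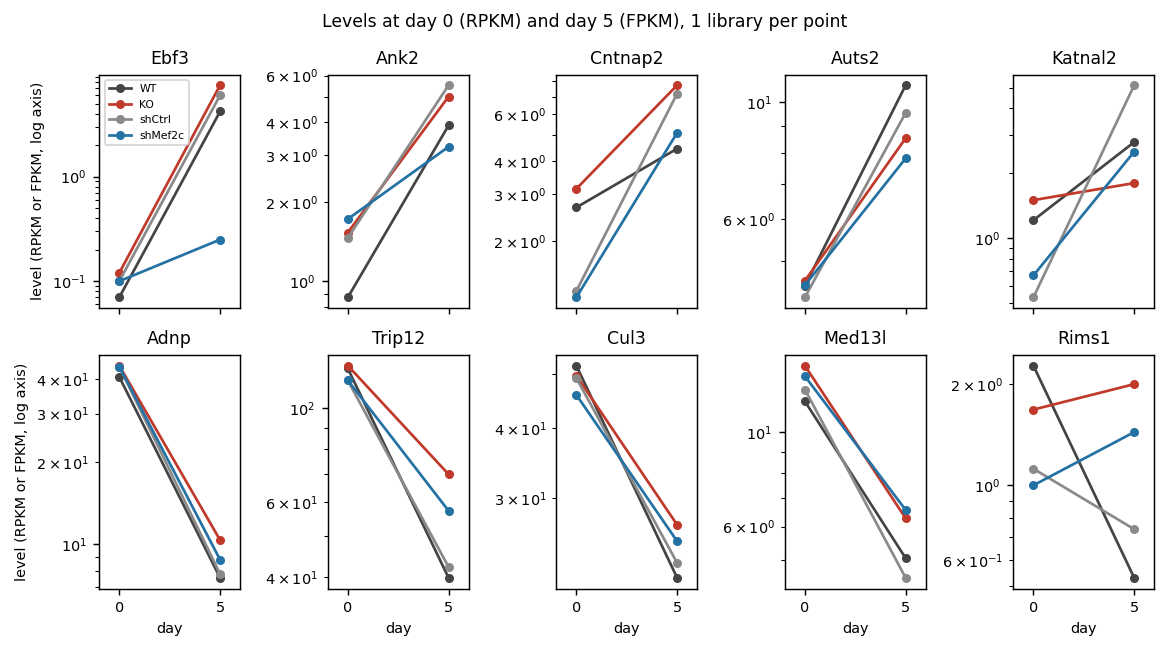
Level of 10 members at day 0 (RPKM) and day 5 (FPKM) on log axes, 1 point per library and 1 colour per line. Ebf3 separates shMef2c from the other lines at day 5, and Adnp is lower at day 5 in all 4. Rims1 is lower at day 5 in the controls and slightly higher in the perturbed lines (centred log2 0.15 in KO and 0.32 in shMef2c). The values of the 2 days were normalized separately.

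Other genes of the same kinds came from lists also drawn up with earlier results known. Beside their counts past 2-fold at day 5 stand 7.31% of all features in KO over WT. For shMef2c over shCtrl the share was 9.26% (4.78% lower). Of 32 other autism-associated chromatin and transcription genes, 29 were measured in KO over WT, with 1 past 2-fold higher, 0 lower and a median of 0.10. In shMef2c over shCtrl, 30 were measured, none was past 2-fold and the median was -0.20. The gene past 2-fold in KO was Kmt2c, a histone methyltransferase, at 3.98 against 1.43 FPKM (log2 1.04). Of 29 other synapse, adhesion and channel genes, 10 were measured in KO, with 0 higher and a median of -0.39, and 12 in shMef2c, with 0 higher, 2 lower and a median of -0.24. The lower genes in shMef2c were Nlgn2, an adhesion protein of inhibitory synapses, at 7.23 against 19.0 FPKM (-1.28), and Dlg4, the main scaffold of the postsynaptic density, at 5.06 against 11.9 FPKM (-1.09).

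By read share, 12 of the 28 synapse, adhesion and channel genes with at least 10 reads were lower in shMef2c and 0 higher, beside 10.6% and 9.46% of all features. In KO 5 of 28 were lower and 1 higher, beside 8.27% and 8.79%. The same list had 9 of 29 higher and 0 lower in shCtrl over WT, beside 4.33% of all features higher, so the control libraries differed in it too. Of 20 other signalling, translation and ubiquitin genes all were measured and 0 were past 2-fold in either line, with medians of 0.12 in KO and -0.032 in shMef2c. The 11 genes of the TSC and mTOR complex 1 pathway had 0 past 2-fold in both, with medians of 0.0093 and -0.14, and the 6 relatives and partners of FMRP had 0 as well, with 0.020 in both. Of 7 genes known as activity-regulated Mef2 targets in neurons, 4 were measured in shMef2c over shCtrl, with 0 past 2-fold and a median of -0.046. By read share all 7 had at least 10 reads, with 2 lower, 0 higher and a median log2 ratio of -0.64. Beside this stand 10.6% of all features lower and 9.46% higher.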

How the data were processed

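RNA-seq of 8 bulk cultures, 1 per group, was analysed from the processed values. For day 5 the authors deposited expected counts (estimated reads per gene, not all whole) and FPKM values per library, per the file headers. A gene below 0.01 FPKM has no line in these files and was set to 0. The day 0 values come from 1 deposited table of RPKM values and estimated counts, as its header names them. The authors' comparison tables for day 5, which the labels credit to a method based on the Poisson distribution, hold log2 ratios and p-values adjusted as a false discovery rate, per the file headers. Only the log2 ratios are printed. Tools named in the submitters' processing notes are RSEM, Bowtie, Bowtie2, HISAT and HISAT2, with the mouse build mm9, without versions or roles. The sources used here do not state whether strand was used in counting, so reads of overlapping and antisense genes cannot be separated.

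The 36 members, their roles and the related lists were chosen with earlier results of these data known. The main measure was log2((value + 1)/(value + 1)) on FPKM or RPKM, for features whose mean over the pair was at least 1, called at 2-fold. The second was the ratio of a gene's share of the library's estimated counts, rounded for exact Clopper-Pearson 95% intervals, called at 2-fold with an interval leaving out 1 and at least 10 reads over the pair. Values in all libraries are given for members called by either measure at day 5 and for the most abundant and most different member of each role. Of genes outside the list, those named are related-list genes past 2-fold in KO or shMef2c at day 5, and 1 such gene is not reported here. RefSeq tables of GRCm38.p6, which differs from mm9, gave chromosomes, gene order and promoter sequences. The pseudocount call and the coverage of the interval were run on simulated Poisson counts, which hold counting error only. Changes were placed in none of the scarce genes, and the read-share call was not run there. The simulation is therefore no check of the calls for scarce members. Counts of members past 2-fold and single member values past 2-fold were recomputed. Within a day the settings were a pseudocount of 0.1, no filter, a minimum mean of 5, TPM and the other control library. TMM factors (edgeR 4.0.16) and size factors (DESeq2 1.42.0) on rounded counts were also used, as were folds of 1.5 and 4 for the counts. Across days they were a pseudocount of 0.1, a minimum mean of 5, TPM and no centring. Read-share calls of members were recomputed only with the other control library. Role, neighbour, related-list and promoter values were not recomputed. Python 3.11.15, pandas 2.3.3, scipy 1.17.1 and R 4.3.3 were used.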

Additional observations from a re-analysis of the deposited data

Results flagged for a closer look

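For 10 pairs of comparisons, the read-share ratio of a member lay on opposite sides of 1, with both sizes at least 1.2-fold and both counting intervals leaving out 1. The share of all features that meet this rule was not computed, so the count cannot be read as particular to the members. None of these differences between comparisons was tested, since each rests on 1 library per group, and no explanation is offered. Between the perturbed lines at day 5, with KO over WT given first and shMef2c over shCtrl second, the ratios were 1.77 and 0.0415 for Ebf3, 4.91 and 0.421 for Dscam, 1.74 and 0.705 for Cntnap2, 1.36 and 0.537 for Ank2, 0.603 and 1.33 for Shank3, and 0.825 and 1.32 for Setd5. With the control libraries exchanged, Ebf3 (1.25 and 0.0588), Shank3 (0.729 and 1.10) and Setd5 (0.888 and 1.22) still lay on opposite sides of 1. Dscam (1.98 and 1.05), Cntnap2 (1.07 and 1.15) and Ank2 (0.921 and 0.791) did not. Between the days in KO over WT, with day 0 first, the ratios were 0.726 and 3.69 for Rims1 and 5.65 and 0.560 for Myt1l, the latter from 11 reads against 2 at day 0. Between the days in shMef2c over shCtrl, where the day 0 library is the one whose Mef2c level goes against its label, they were 1.57 and 0.240 for Cacna1c and 1.26 and 0.537 for Ank2.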

How the results depend on the processing

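No paired analysis was possible because each group has 1 library and its replicate number is only a name, and for the same reason no replicate could be left out. Of 74 counts of members past 2-fold that were recomputed, 54 stayed within 1.5 times and 20 moved. The cause was not tested except where fewer or more genes enter by construction. Shares of all features called at the same setting are given in brackets. For KO over WT at day 5 the count of 0 became 1 of 26 with a pseudocount of 0.1 (11.4%) and 1 of 28 with TPM (9.02%). It became 1 of 27 against shCtrl (10.2%), 4 of 26 at a fold of 1.5 (20%) and 6 of 36 by read share (17.1%). For shMef2c over shCtrl at day 5 the count of 1 became 0 of 18 with a mean of 5 or more (6.89%), which leaves out Ebf3. It became 3 of 27 at a fold of 1.5 (24.4%) and 5 of 36 by read share (20.1%). For shCtrl over WT at day 5 the count of 0 became 2 of 26 at a fold of 1.5 (5.25%) and 2 of 35 by read share (6.34%). At day 0 it became 2 of 23 (6.83%) and 2 of 34 (4.91%). For KO over WT at day 0 the count of 0 became 1 of 24 at a fold of 1.5 (13%) and 2 of 35 by read share (8.63%). Across days, a mean of 5 or more left 17 members in each line. The counts fell from 8 to 5 in WT (27.6%) and from 5 to 3 in KO (16.8%). They fell from 9 to 4 in shCtrl (27.9%) and from 3 to 1 in shMef2c (16.3%). In shMef2c the count was 5 of 24 without centring (18.9%) and 6 of 26 with TPM (21.9%). Of 95 recomputed values of single members, 0 changed sign and 2 no longer reached 2-fold, both for Pogz in shCtrl across days (-0.94 and -0.98). Only values already past 2-fold were recomputed, namely Ebf3 in shMef2c over shCtrl at day 5 and members across days. Such values were unlikely to change sign, and those left out by a filter were not counted. Read-share calls were not among the 95, which are therefore no check of those calls. Members under 1 FPKM rest on few reads, and the wide intervals of Tbr1, Ptchd1 and Grin2b show what this depth can tell of them.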
